A study of Mus musculus with 12 samples.

Results

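The genes described here are 10 components of calcium handling in cardiomyocytes, the muscle cells of the heart. They were taken by symbol from a table of raw read counts and number 10 of its 45664 genes. All 10 passed the filter on low counts that left 20691 genes for testing. They are Ryr2, Casq2, Trdn, Hrc and Jph2 on the release side, Atp2a2, Pln and Sln on the reuptake side, and Cacna1c and Slc8a1 at the surface membrane.

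Messenger RNA was sequenced from whole hearts of mouse embryos at embryonic stages E13.5 and E14.5 (days after conception). Each stage had 3 wild-type (WT) libraries and 3 libraries labelled KO, in which Ino80, the ATPase of a chromatin remodelling complex, was disrupted in endothelium through Tie2; Tie2 is expressed in endothelial and endocardial cells and in part of the blood lineage, not in cardiomyocytes. All 6 libraries at E13.5 came from litter 1. At E14.5, WT 8, WT 7, KO 2 and KO 4 came from litter 2, and WT 7.2 and KO 1 from litter 3, so stage and litter cannot be told apart. Strain, the deleted part of Ino80, the genotype of the littermates beyond "WT", and whether a library held 1 heart or a pool are not stated in the labels. The p-values therefore measure the spread between these libraries. In whole hearts, fewer cells of a type and less RNA per cell cannot be told apart.

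A heartbeat is set off when calcium enters the cardiomyocyte through the L-type channel and opens ryanodine receptors in the sarcoplasmic reticulum, the internal calcium store. Calsequestrin and its partners hold calcium beside the release channel. The SERCA pump then returns calcium to the store, under the restraint of small membrane proteins, while the sodium-calcium exchanger moves the rest out of the cell. In the embryonic heart the beat starts before the reticulum is mature, and its store grows through gestation.

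Both micropeptides that restrain the pump have coding sequences short enough to print whole, and they are shown because their levels per kilobase stood at opposite ends of the 10 genes. The sequences are from GENCODE release M21 transcripts, 5′ to 3′, with the start and stop codons in capitals. The Pln coding sequence had 159 bases (52 codons before the stop) and was shared by 6 annotated transcripts. That of Sln had 96 bases (31 codons).
Pln coding sequence: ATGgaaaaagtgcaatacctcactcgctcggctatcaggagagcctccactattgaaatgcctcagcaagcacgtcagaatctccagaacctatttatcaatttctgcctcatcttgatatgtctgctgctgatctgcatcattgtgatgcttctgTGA
Sln coding sequence: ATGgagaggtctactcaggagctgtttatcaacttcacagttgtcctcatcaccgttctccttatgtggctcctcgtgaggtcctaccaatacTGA

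The bases upstream of Casq2 and Pln are shown because these genes had the largest rises with stage. The RefSeq promoter table (GRCm38.p6) matched 7 of the 10 genes by symbol. Printed are the 250 bases before the annotated start, 5′ to 3′ on the plus strand, with matches to 5 searched motifs in capitals.
Casq2 upstream, chr3:102086165-102086414: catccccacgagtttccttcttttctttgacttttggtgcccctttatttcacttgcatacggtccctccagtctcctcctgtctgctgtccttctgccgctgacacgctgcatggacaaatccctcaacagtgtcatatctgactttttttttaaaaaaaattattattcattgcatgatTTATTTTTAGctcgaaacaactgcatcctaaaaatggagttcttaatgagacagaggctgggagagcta
Pln upstream, chr10:53337436-53337685: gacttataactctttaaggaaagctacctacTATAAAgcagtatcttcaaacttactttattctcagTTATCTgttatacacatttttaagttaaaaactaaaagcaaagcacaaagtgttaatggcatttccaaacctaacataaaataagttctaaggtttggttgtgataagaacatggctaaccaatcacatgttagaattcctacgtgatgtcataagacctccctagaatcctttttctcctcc
In Casq2 the capitals mark 1 match to the MEF2 motif at bases -69 to -60 from the start. In Pln they mark TATAAA at -219 and the reverse complement of the GATA motif AGATAA at -183. The 5 motifs, searched on both strands, were MEF2, the CArG box, AGATAA, the E-box CAGCTG and TATAAA, a set settled after the Casq2 sequence had been seen. A MEF2 match can contain TATAAA, but the matches shown do not overlap each other. Of 32536 upstream windows of the same length, 2.89% held a MEF2 match, 1.48% a CArG box, 9.97% AGATAA, 13.1% CAGCTG and 12.3% TATAAA. A match describes letters only.

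The libraries held 46556032 to 182545647 counts. Levels are given in CPM, counts relative to the TMM-scaled library total. At E13.5 Ino80 was at 30.7 to 36.6 CPM in WT and 29.57 to 29.63 CPM in KO libraries, lower without overlap, as were 11.2% of all tested genes. At E14.5 it was at 30.8 to 33.9 CPM in WT and 27.0 to 31.9 CPM in KO libraries, which overlapped. Its KO-minus-WT log2 difference was -0.19 ± 0.08 (SE) at E13.5 (adjusted p = 0.447) and -0.12 ± 0.08 at E14.5 (adjusted p = 0.726), so whole-heart levels did not check the genotype labels. The 10 cardiomyocyte markers (Tnnt2, Actn2, Ttn and others) summed to 16858 to 21248 CPM across the 12 libraries, with none below 1 CPM everywhere. The skeletal muscle markers Myod1, Myf5 and Pax7 were at 0 in most libraries, with a highest value of 0.0641 CPM. Of the 10 on that list, 5 stayed below 0.1 CPM and 6 below 1 CPM in all 12. The others were detected, and the list summed to 7.67 to 11.9 CPM per library. KO 1 at E14.5 stood apart in red blood cell RNA: its erythroid marker sum (9 of 10 markers in the table) was 41925 CPM, against 4785 to 18409 CPM in the other 11 libraries. Macrophage and leukocyte markers summed to 42.1 to 81.1 CPM in the KO and 117 to 129 CPM in the WT libraries at E13.5, with no overlap, and to 39.8 to 135 CPM in the KO and 98.9 to 112 CPM in the WT libraries at E14.5. Their part in the results was not tested.

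From E13.5 to E14.5 the calcium store genes Casq2 and Trdn and the pump regulator Pln rose in WT hearts, and Casq2 and Pln rose in KO hearts. Casq2 had the largest change of the 10, 2.49-fold in WT and 2.23-fold in KO. None of the 10 was called lower at E14.5. Between KO and WT, none of the 10 passed the test at either stage or over both, although all 10 fitted differences were below 0 at E14.5. The plots of library values and fold changes show both patterns.

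**Figure D1:**
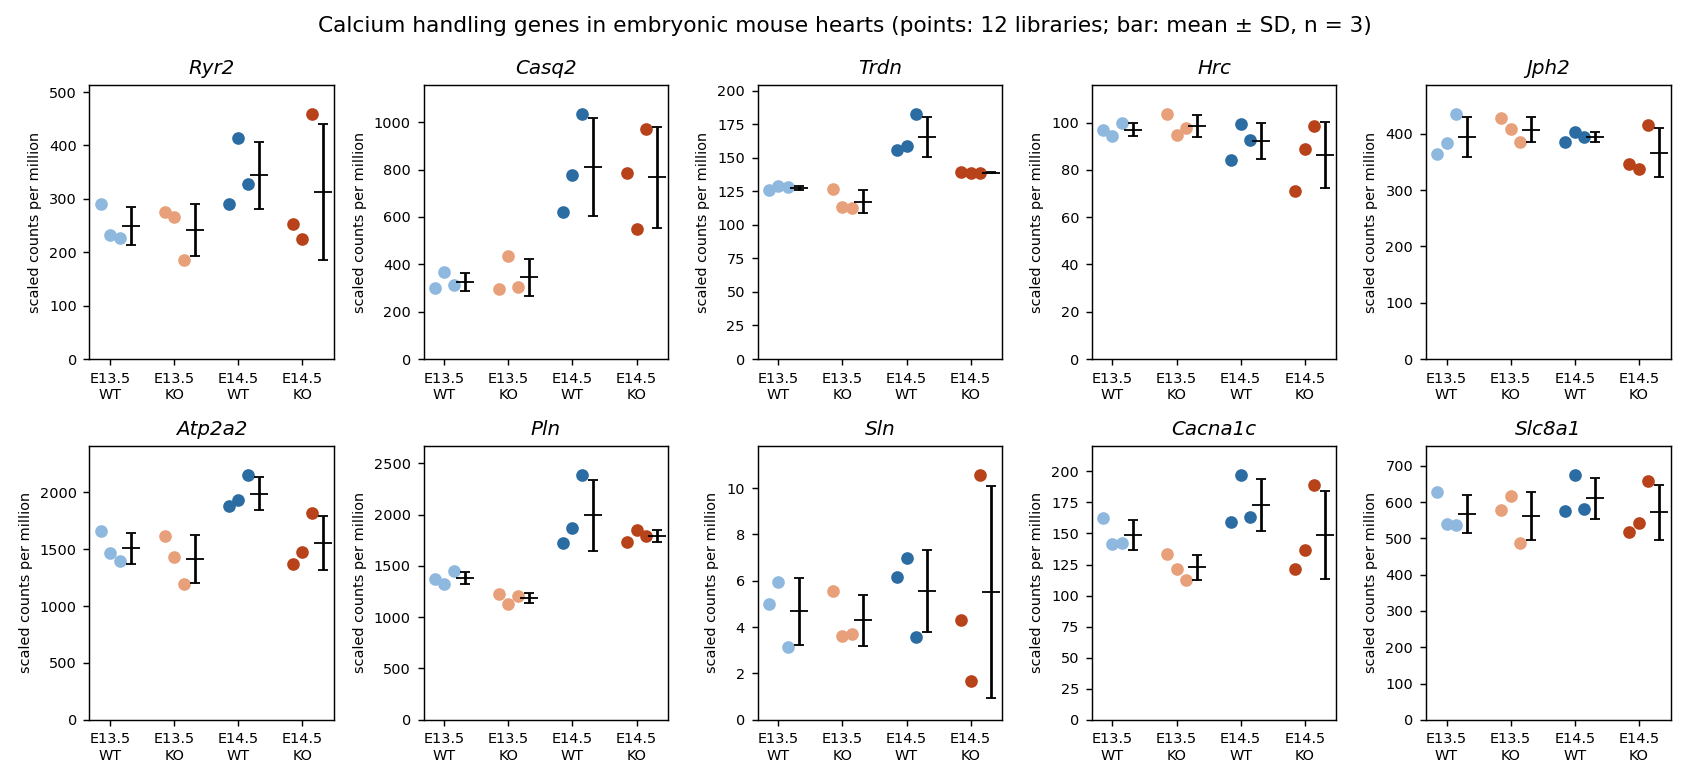
CPM (vertical axis, from 0) of each of the 10 genes in the 4 groups; points are the 12 libraries and bars the mean ± SD of 3. In Casq2 all 6 libraries at E14.5 sit above all 6 at E13.5, and in Trdn the 3 KO libraries at E14.5 sit together below the 3 WT libraries.

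Among the release genes, Casq2 encodes cardiac calsequestrin, the main calcium-binding protein inside the store (GRCm38 chromosome 3, 102086415 to 102146514, plus strand, 13 exon blocks). In WT libraries 1, 4 and 2 at E13.5 it was at 299, 368 and 311 CPM, and in KO libraries 3, 5 and 7 at 294, 434 and 305 CPM. At E14.5, WT 8, 7 and 7.2 had 621, 779 and 1034 CPM, and KO 2, 4 and 1 had 785, 547 and 972 CPM. The lowest library at E14.5 lay above the highest at E13.5 in each genotype, while WT and KO overlapped at both stages. The stage difference in WT was 1.32 ± 0.23 on the log2 scale (SE; edgeR quasi-likelihood adjusted p = 0.0208), and in KO 1.16 ± 0.22 (adjusted p = 0.0221). Per 1000 counts of the summed cardiomyocyte markers, Casq2 went from 17.9 ± 2.42 to 40.0 ± 8.40 in WT and from 18.5 ± 4.22 to 40.3 ± 8.34 in KO (mean ± SD, n = 3 each).

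Trdn encodes triadin, which ties calsequestrin to the release channel (chromosome 10, 33080554 to 33476709, plus strand). At E13.5 the WT libraries 1, 4 and 2 had 126, 129 and 128 CPM and the KO libraries 3, 5 and 7 had 127, 113 and 112 CPM. In WT 8, 7 and 7.2 at E14.5 it was at 156, 159 and 182 CPM, and in KO 2, 4 and 1 at 139.4, 138.8 and 138.3 CPM. All E14.5 libraries were higher than the E13.5 libraries of their genotype, and at E14.5 every KO library was below every WT library. The rise in WT was 0.38 ± 0.07 (adjusted p = 0.0225). In KO the difference was 0.24 ± 0.07 (adjusted p = 0.0703), which did not pass, and DESeq2 put it at an adjusted p of 0.0176. For stage in KO, DESeq2 called 1822 of all tested genes where edgeR called 779.

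Ryr2, the release channel itself (chromosome 13, 11553102 to 12106945, minus strand, 107 exon blocks), had a coefficient of variation of 40.7% in the KO libraries at E14.5, the widest of the release genes in any group. WT 1, 4 and 2 at E13.5 had 291, 231 and 228 CPM, and KO 3, 5 and 7 had 275, 265 and 185 CPM. The E14.5 libraries WT 8, 7 and 7.2 had 291, 413 and 329 CPM, and KO 2, 4 and 1 had 254, 225 and 458 CPM. KO 1 was the highest of all 12 libraries and KO 4 and KO 2 were below all 3 WT libraries of that stage, so the groups overlapped in every comparison. The stage difference was 0.46 ± 0.24 in WT (adjusted p = 0.275) and 0.37 ± 0.24 in KO (adjusted p = 0.432).

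Hrc and Jph2 were the most even of the release genes, with coefficients of variation of 9.34% and 7.77% over the 12 libraries. Hrc encodes a histidine-rich calcium-binding protein of the store (chromosome 7, 45335290 to 45338974, plus strand) and ranged from 71.2 CPM in KO 2 at E14.5 to 103 CPM in KO 3 at E13.5. Jph2 encodes junctophilin 2, which holds the reticulum against the surface membrane (chromosome 2, 163336242 to 163397993, minus strand), and ranged from 338 CPM in KO 4 at E14.5 to 434 CPM in WT 2 at E13.5. Groups overlapped in all comparisons of both genes. Their WT stage differences were -0.07 ± 0.10 for Hrc (adjusted p = 0.697) and 0.00 ± 0.09 for Jph2 (adjusted p = 0.995).

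Among the reuptake genes, Pln encodes phospholamban, the reversible inhibitor of the pump whose coding sequence is printed above (chromosome 10, 53337667 to 53345987, plus strand). At E13.5, WT 1, 4 and 2 had 1374, 1328 and 1448 CPM, and KO 3, 5 and 7 had 1222, 1133 and 1206 CPM. At E14.5, WT 8, 7 and 7.2 had 1724, 1872 and 2385 CPM, and KO 2, 4 and 1 had 1729, 1847 and 1796 CPM. Every E14.5 library was above every E13.5 library, every KO library at E13.5 was below every WT library, and the genotypes overlapped at E14.5. The rise was 0.53 ± 0.11 in WT (adjusted p = 0.0278) and 0.59 ± 0.11 in KO (adjusted p = 0.0178). A fit with litter as a replicate block sets litter 2 of E14.5 against litter 1 of E13.5 and does not separate stage from litter. In that fit the WT rise was 0.45 (adjusted p = 0.0541), no longer past the threshold. The exons of Pln overlap those of Gm47644 over 1644 bp and of Cep85l (7.71 CPM) over 141 bp, both on the opposite strand, and since no source used here states the strand setting of the counting, reads from these stretches cannot be told apart.

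Atp2a2 encodes SERCA2, the pump that refills the store (chromosome 5, 122453513 to 122502225, minus strand). At E13.5, WT 1, 4 and 2 had 1660.3, 1463 and 1400.1 CPM, and KO 3, 5 and 7 had 1617, 1429 and 1192 CPM. A day later WT 8, 7 and 7.2 had 1883, 1933 and 2153 CPM, and KO 2, 4 and 1 had 1366, 1472 and 1822 CPM. The 3 WT libraries at E14.5 were the highest of the 12, above all WT libraries at E13.5 and all KO libraries at E14.5. The WT stage difference was 0.40 ± 0.13 (adjusted p = 0.0955) and that in KO 0.14 ± 0.13 (adjusted p = 0.616), neither past the threshold. The WT value passed with DESeq2 (adjusted p = 0.0226) and in a fit of the 6 WT libraries alone (adjusted p = 0.048). Over all tested genes, DESeq2 called 2140 of 20691 for stage in WT, and the fit of the WT libraries alone 556 of 19794. The main fit called 766.

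Sln encodes sarcolipin, a micropeptide inhibitor of the pump known from atria in the mouse heart (chromosome 9, 53850164 to 53854560, plus strand). It was at 4.98, 5.96 and 3.12 CPM in WT 1, 4 and 2 and at 5.56, 3.61 and 3.69 CPM in KO 3, 5 and 7 at E13.5. At E14.5 it was at 6.17, 6.96 and 3.56 CPM in WT 8, 7 and 7.2, and at 4.32, 1.66 and 10.6 CPM in KO 2, 4 and 1. The lowest and the highest of the 12 libraries were both in the KO group at E14.5, and its stage and genotype differences had SEs of 0.49 to 0.50, so only large changes were detectable. The summed atrial marker level (9 genes) was 1701 to 2202 CPM in the WT libraries at E14.5, below the 2275 to 2724 CPM at E13.5. In the KO libraries it was 1973 to 2141 CPM at E14.5, below the 2686 to 2962 CPM at E13.5. Myl4, 1 of the 9, alone averaged 1413 CPM over the 12 libraries. The Sln groups overlapped between stages in both genotypes.

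At the surface membrane, Cacna1c encodes the pore of the L-type channel (chromosome 6, 118587240 to 119196418, minus strand). At E13.5, WT 1, 4 and 2 had 162, 141 and 142 CPM, and KO 3, 5 and 7 had 133, 122 and 113 CPM. The later WT libraries 8, 7 and 7.2 had 159, 197 and 163 CPM, and KO 2, 4 and 1 had 121, 137 and 189 CPM. Every KO library at E13.5 was below every WT library. At E14.5 KO 2 and KO 4 were below the WT libraries, and KO 1 was among them. The Cacna1c stage difference was 0.22 ± 0.14 in WT (adjusted p = 0.369) and 0.28 ± 0.14 in KO (adjusted p = 0.289), neither past the threshold.

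Slc8a1 encodes the sodium-calcium exchanger (chromosome 17, 81373105 to 81738377, minus strand). Its libraries ranged from 488 CPM in KO 7 at E13.5 to 675 CPM in WT 7 at E14.5, and all groups overlapped. Its stage difference was 0.10 ± 0.12 in WT (adjusted p = 0.626) and 0.03 ± 0.12 in KO (adjusted p = 0.924). Slc8a1 exons overlap an antisense gene over 296 bp and Atp2a2 exons another gene on the opposite strand over 83 bp, with the same limit as for Pln.

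**Figure D2:**
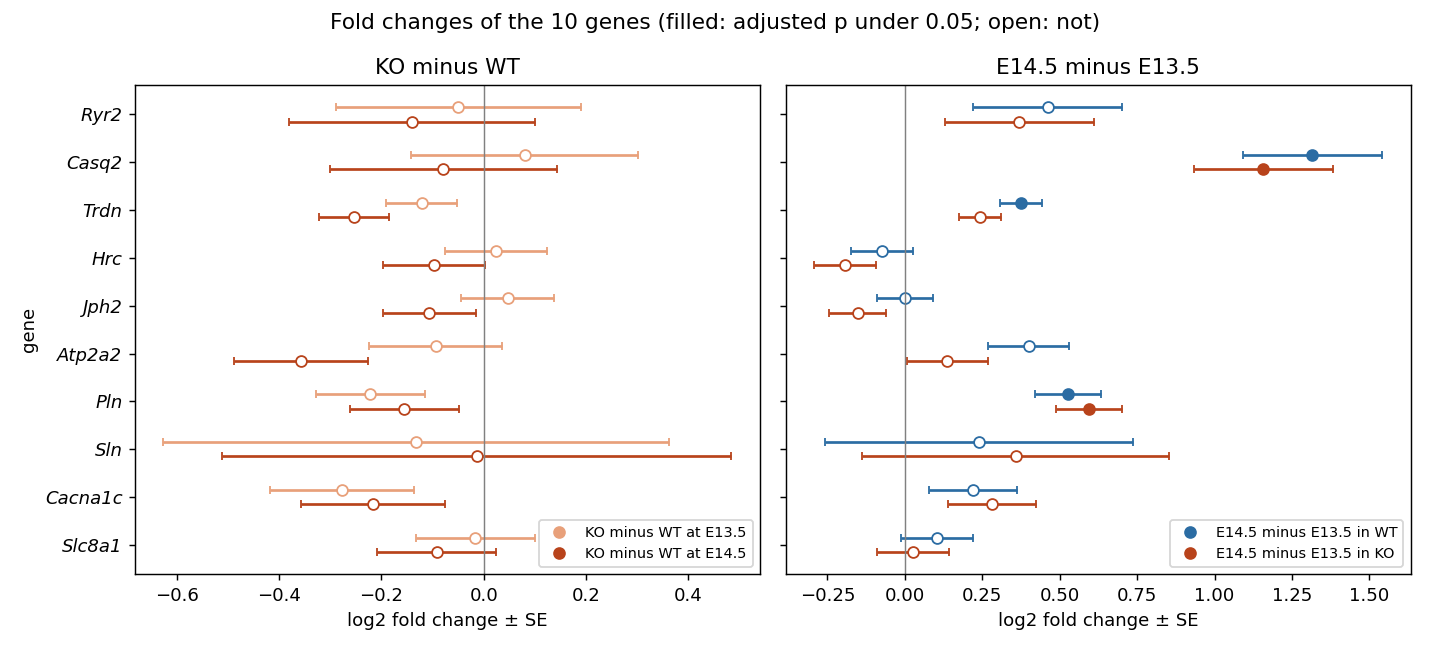
Log2 fold changes ± SE (horizontal axis) of the 10 genes from the edgeR fit of 12 libraries, KO minus WT on the left and E14.5 minus E13.5 on the right; filled points had an adjusted p under 0.05. The filled points are Casq2, Trdn and Pln in WT and Casq2 and Pln in KO, all on the right-hand panel.

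For the stage comparison as a whole, 3 of the 10 genes rose in WT and 2 in KO, and 0 fell in either. Over all tested genes 3.70% passed in WT (1.87% upward) and 3.76% in KO (2.13% upward). The median log2 difference of the 10 was 0.31 in WT and 0.26 in KO, against 0.00 over all tested genes in both. Groups did not overlap, with E14.5 higher, for 4 of 10 in WT (Casq2, Trdn, Atp2a2 and Pln) and 3 of 10 in KO (Casq2, Trdn and Pln), where 14.0% and 12.1% of all tested genes did so. Of the 10 cardiomyocyte markers 0 passed in either genotype, with medians of 0.14 in WT and 0.01 in KO, and 4 of 10 in WT and 1 of 10 in KO were higher at E14.5 without overlap. The ventricular marker sum was 13166 to 15547 CPM in the WT libraries at E14.5, above the 11484 to 12448 CPM at E13.5. In the KO libraries it was 11407 to 15100 CPM at E14.5 and 10725 to 12480 CPM at E13.5, which overlapped. Of the 9 ventricular markers, 7 had a WT stage difference above 0 and 2 below, with 0 called up and 1 down. In KO, 6 were above 0 and 3 below, with 2 called up and 1 down. The part of these markers in the rises was not tested. The stage calls depended on single libraries: in WT all 3 were lost without WT 1, WT 2 or WT 4 of E13.5, without WT 7.2, or without litter 3, with Casq2 still at 1.10 to 1.40 and adjusted p of 0.0516 to 0.0958. In KO no gene of the 10 was called without KO 3 or KO 7 of E13.5 or KO 1 of E14.5, and 1 (Casq2) without KO 5. Over all tested genes the calls also fell in these fits. In WT they went from 766 to 10, 8, 27, 15 and 67 without WT 1, WT 2, WT 4, WT 7.2 and litter 3. In KO they went from 779 to 104, 49, 142 and 140 without KO 3, KO 7, KO 1 and KO 5.

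The study's question was what loss of Ino80 in endothelium does in the heart, and for these genes the KO-minus-WT comparison gave no call. At E13.5, 0 of 10 passed (0.0773% of all tested genes did), 0 had an unadjusted p under 0.05 (10.5% of all), and DESeq2 called 0. The fitted differences ran from -0.28 ± 0.14 for Cacna1c to 0.08 ± 0.22 for Casq2, with 7 of 10 below 0 (49.6% of all tested genes). Pln at -0.22 ± 0.11 (adjusted p = 0.488) and Cacna1c (adjusted p = 0.51) were lower in every KO library than in any WT library, as were 11.2% of all tested genes.

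At E14.5, 0 of 10 passed with edgeR (0.242% of all tested genes), and 2 had an unadjusted p under 0.05 (9.70% of all). DESeq2 called Trdn (adjusted p = 0.0408) among 348 of all tested genes. All 10 differences were below 0, where 51.9% of all tested genes were, with a median of -0.12. The largest was that of Atp2a2, which was 1553 ± 239 CPM in KO and 1989 ± 143 CPM in WT (mean ± SD, n = 3 each), a log2 difference of -0.36 ± 0.13 (adjusted p = 0.364). Trdn differed by -0.25 ± 0.07 (adjusted p = 0.193). These 2 genes had no overlap between the groups, in that direction 5.87% of all tested genes. The 10 cardiomyocyte markers had the same count and median, 10 of 10 below 0 and -0.12, with 0 called, and the sum of their levels was 17655 to 21248 CPM in KO and 18977 to 21011 CPM in WT. Per 1000 counts of these markers, Atp2a2 was at 77.4 to 85.7 in KO and 94.7 to 102 in WT at E14.5, without overlap. On the same measure Trdn was at 6.51 to 7.90 in KO and 7.76 to 8.68 in WT, which overlapped. The part of the markers in the differences of the calcium genes was not tested. Without KO 1, which stood apart, Atp2a2 was at -0.49 (adjusted p = 0.127) and still 0 of 10 passed.

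Averaged over both stages (6 libraries against 6), 0 of 10 passed with edgeR where 1.56% of all tested genes did. DESeq2 called Trdn (adjusted p = 0.0132) among 926 of all tested genes. With edgeR, 4 of the 10 had an unadjusted p under 0.05 (14.8% of all). The 4 were Trdn at -0.19 ± 0.05 (adjusted p = 0.0839), Pln at -0.19 ± 0.08 (adjusted p = 0.264), Cacna1c at -0.25 ± 0.10 (adjusted p = 0.272) and Atp2a2 at -0.23 ± 0.09 (adjusted p = 0.276). Casq2, which had the largest stage change, differed by 0.00 ± 0.16 (adjusted p = 0.999). Differences below 0 numbered 9 of 10, against 50.7% of all tested genes and 9 of 10 cardiomyocyte markers. Cacna1c alone passed when KO 1 of E14.5 was left out (-0.35, adjusted p = 0.0317) or all of litter 3 (-0.37, adjusted p = 0.0443). Over all tested genes, 489 of 20881 were called without KO 1 and 324 of 21134 without litter 3. The main fit called 322 of 20691.

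The genotype difference did not depend on stage at a detectable level. Of the 10 genes 0 passed the interaction test (0% of all tested genes; 3.62% of them, 750, had an unadjusted p under 0.05, none of the 10, and DESeq2 called 2 genes in all and 0 of the 10). Its values ran from -0.26 ± 0.18 for Atp2a2 to 0.12 ± 0.70 for Sln, all with an adjusted p of 0.996. Trdn, called for stage in WT and not in KO, had an interaction of -0.13 ± 0.10, so its rise was not shown to differ between the genotypes.

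The regulators were also set against the pump within each library, which needs no scaling between libraries. Pln counts per Atp2a2 count were 0.923 ± 0.104 in WT and 0.853 ± 0.139 in KO at E13.5, and 0.998 ± 0.0994 in WT and 1.17 ± 0.159 in KO at E14.5 (mean ± SD, n = 3 each). The KO stage difference of 0.46 on the log2 scale had a two-sided exact permutation p of 0.2, where 3 against 3 cannot go below 0.1. Slc8a1 counts per Atp2a2 count were 0.308 ± 0.0398 in WT and 0.369 ± 0.00831 in KO at E14.5, and the exchanger-to-pump ratio averaged over stages was 0.18 higher in KO on the log2 scale (exact permutation p = 0.04 with libraries permuted within stage, 0.5 after adjustment over the 15 ratio tests). None of the 15 tests passed after adjustment. Those of 3 libraries against 3 could not have passed, and those averaged over stages cannot go below an exact permutation p of 0.005 before adjustment. The lack of a call therefore says little about these ratios. These ratios compare counts, not levels per length.

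Per kilobase of annotated exon, the order of the 10 genes was Pln, Atp2a2, Casq2, Jph2, Hrc, Slc8a1, Trdn, Ryr2, Cacna1c and Sln. Pln averaged 576 CPM per kilobase over the 12 libraries, Atp2a2 266 and Casq2 206, against 9.97 for Ryr2 and 3.80 for Sln. The mRNA of the pump's inhibitor Pln was thus above that of the pump in all 12 libraries on this scale, whereas their raw counts were about level. Atp2a2 was above Casq2 in 9 of 12 libraries, and the ranges of Hrc and Slc8a1, Trdn and Ryr2, Ryr2 and Cacna1c, and Cacna1c and Sln overlapped. With the longest annotated transcript in place of all exons the order was the same, but Trdn stood at 30.4 and Ryr2 at 17.1 CPM per kilobase in place of 14.7 and 9.97.

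**Figure D3:**
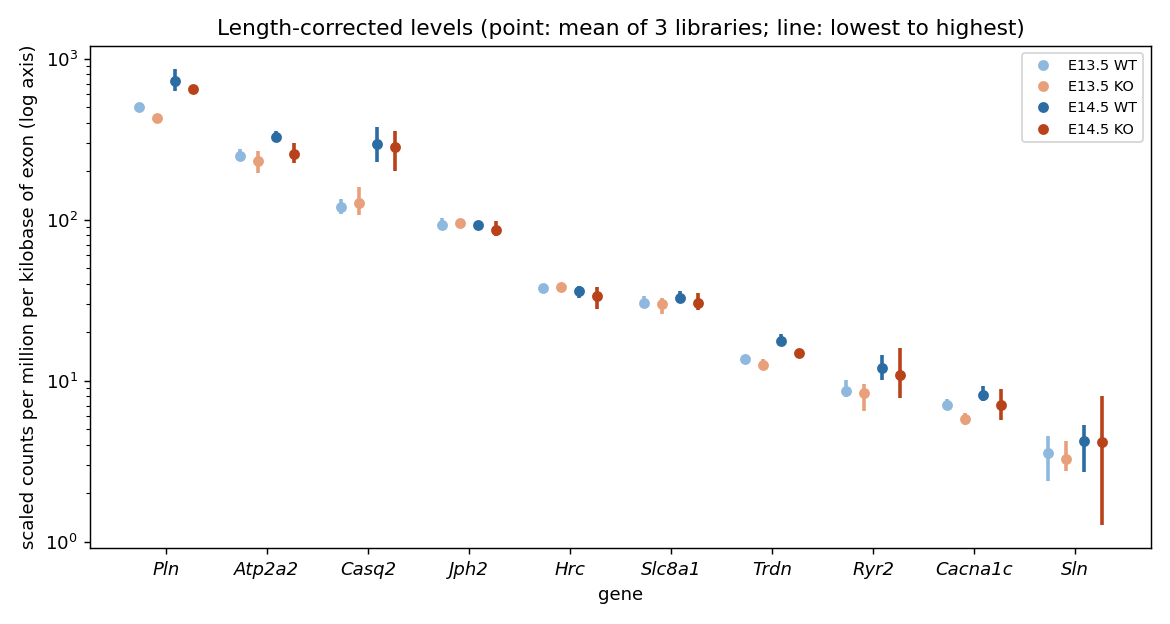
CPM per kilobase of exon (vertical log axis) by gene, ordered by the mean of 12 libraries; points are group means of 3 libraries and lines run from the lowest to the highest. Pln lies above Atp2a2 in each group, and Casq2 reaches the range of Atp2a2 only at E14.5.

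Other genes of calcium handling, 59 by a list of channels, pumps, regulators and mitochondrial transporters, were looked up in the same fit. The table held 57 of them by symbol (Strit1 and Erln were not matched) and 56 were tested. At E13.5 and at E14.5, 0 of 56 passed the KO-minus-WT test by edgeR. The smallest p-value in each direction at E13.5 was that of Cacna1g at -0.47 ± 0.14 (adjusted p = 0.281) and of Casq1 at 0.44 ± 0.14 (adjusted p = 0.312). At E14.5 it was that of Cacna1g (-0.63 ± 0.14, adjusted p = 0.121) and of Slc8b1, the mitochondrial sodium-calcium exchanger (0.52 ± 0.14, adjusted p = 0.173). Of the 56, 4 at E13.5 (10.5% of all tested genes) and 12 at E14.5 (9.70% of all) had an unadjusted p under 0.05. DESeq2 called 0 at E13.5 and 5 at E14.5, where it called 348 of all 20691 tested genes and edgeR 50; the 5 were Cacna1g, Ppp1r3a and Ppp1r1a lower in KO and Slc8b1 and Mcu, the pore of the mitochondrial calcium uniporter, higher; Ppp1r1a and Mcu are named after their values were seen.

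Averaged over stages, 2 of the 56 fell in KO and 0 rose, where 1.56% of all tested genes passed (123 lower and 199 higher). Cacna1g encodes the pore of a T-type calcium channel, which opens at lower voltage than the L-type channel. At E13.5 it was at 22.6, 30.1 and 22.5 CPM in WT 1, 4 and 2 and at 14.7, 20.9 and 18.7 CPM in KO 3, 5 and 7. At E14.5 it was at 41.7, 45.9 and 46.2 CPM in WT 8, 7 and 7.2 and at 25.2, 32.2 and 28.8 CPM in KO 2, 4 and 1. Every KO library was below every WT library of its stage, and the averaged difference was -0.55 ± 0.10 (adjusted p = 0.0194). The call was lost without KO 2 of E14.5 (adjusted p = 0.0515), without litter 3 (0.0635), and without KO 5 of E13.5 and KO 2 of E14.5 together (0.0556).

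Ppp1r3a, a muscle glycogen-targeting subunit of protein phosphatase 1, likewise had no overlap between genotypes at either stage. It was 24.4 ± 2.16 CPM in WT and 19.7 ± 1.35 CPM in KO at E13.5, and 39.3 ± 5.18 and 28.5 ± 2.46 CPM at E14.5 (mean ± SD, n = 3 each). The averaged difference was -0.39 ± 0.07 (adjusted p = 0.0237), and 5 of the 12 fits that left out 1 library (WT 1, WT 4, KO 5 or KO 7 of E13.5, or KO 2 of E14.5) lost the call, with adjusted p of 0.0506 to 0.069. In the interaction the smallest p-value of the 56 in each direction was that of Slc8b1 (0.34 ± 0.19) and of Casq1 (-0.32 ± 0.20), both with an adjusted p of 0.996, and 0 passed.

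With stage, 4 of the 56 rose in WT and 0 fell, where 3.70% of all tested genes passed (1.87% upward). They were Cacna1g at 0.83 ± 0.14 (adjusted p = 0.0208), Ppp1r3a at 0.69 ± 0.11 (0.0168), S100a1, a calcium sensor that binds the pump and the release channel, at 0.67 ± 0.14 (0.0311), and Atp2a3, a second gene for a reticulum pump, at 0.64 ± 0.15 (0.0355). In KO, where 3.76% of all tested genes passed, Cacna1g at 0.67 ± 0.14 (adjusted p = 0.0306) and Ppp1r3a at 0.53 ± 0.11 (0.0235) rose. Casq1, the calsequestrin of fast skeletal muscle, fell in KO by 0.56 ± 0.14 (adjusted p = 0.0482), a call lost in 17 of 22 other settings. An antisense gene of 0.057 CPM overlaps its exons over 156 bp. Casq1 was 94.6 ± 12.5 CPM in WT and 128 ± 15.2 CPM in KO at E13.5. At E14.5 it was 80.4 ± 16.4 CPM in WT and 87.2 ± 9.40 CPM in KO. Its stage difference in WT was -0.23 ± 0.14 (edgeR adjusted p = 0.339), not called. The fitted stage differences of Casq1 and Casq2 thus had opposite signs in both genotypes. With litter as a replicate block Atp2a3 in WT (adjusted p = 0.073) and Cacna1g (0.0648) and Casq1 (0.113) in KO were not called. Each call named here was lost without at least 1 library, as the closing section gives.

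**Figure D4:**
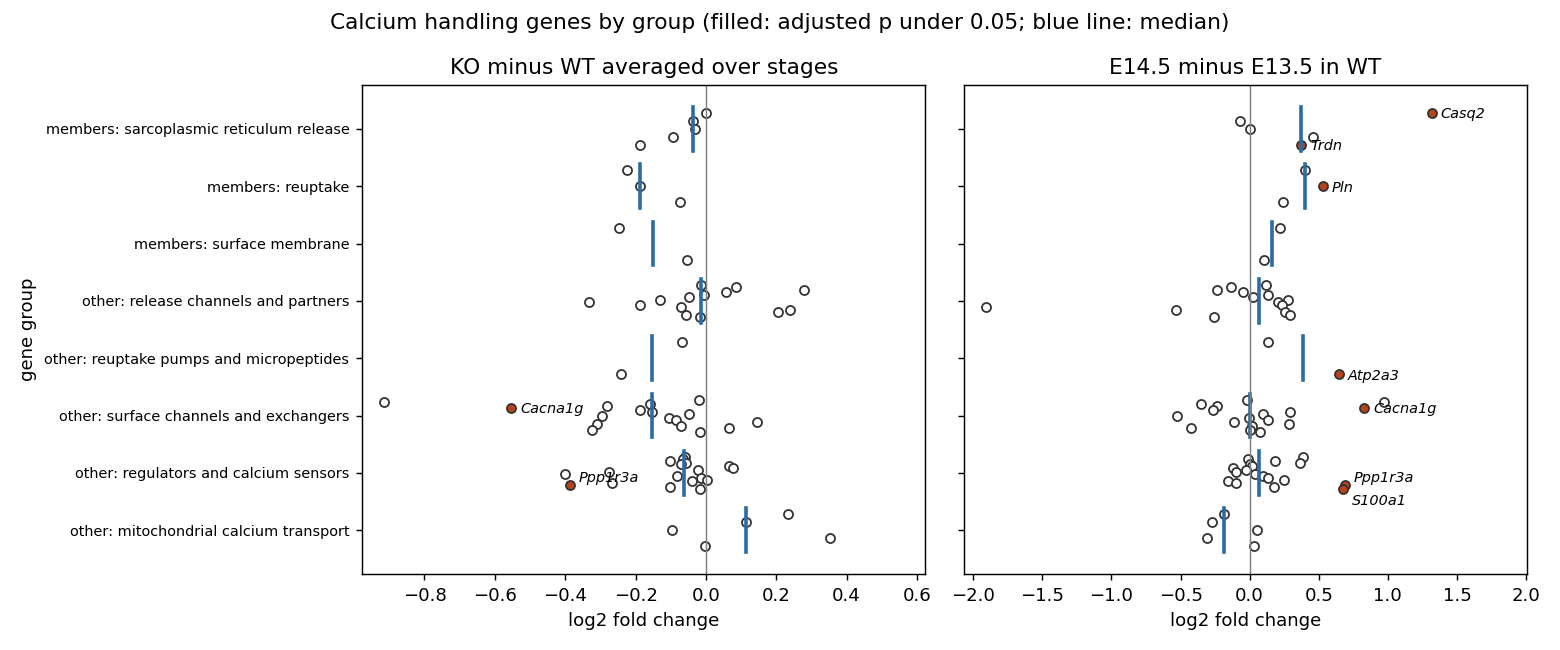
Log2 fold changes (horizontal axis) of the 10 genes and 56 other calcium handling genes by group, KO minus WT averaged over stages on the left and E14.5 minus E13.5 in WT on the right; filled points had an adjusted p under 0.05 and blue lines are group medians. Cacna1g and Ppp1r3a are filled on both panels, to the left of 0 for genotype and to the right for stage.

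The 10 genes fell into patterns that crossed their roles when the 12 libraries were compared. Over log2 CPM, Trdn and Pln had a Pearson r of 0.93 and Casq2 and Pln 0.85, pairs that share the stage rise. Over deviations from the group means, Trdn and Pln had 0.78 and Casq2 and Pln 0.30. Ryr2 and Slc8a1 had 0.88 and Ryr2 and Cacna1c 0.87; over deviations from the group means these were 0.92 and 0.91, while Ryr2 and Pln had -0.03. Points share library, depth and scaling, and these are descriptions. Ryr2, Slc8a1 and Cacna1c are the 3 with the longest annotated transcript (16814, 18464 and 13162 bases). The median log2 deviation of 338 other genes with a transcript of at least 10 kb ranged from -0.15 in KO 7 of E13.5 to 0.16 in WT 7 of E14.5, and its r over 12 libraries was 0.91 with Slc8a1, 0.78 with Cacna1c, 0.77 with Ryr2, 0.64 with Atp2a2, 0.59 with Sln (the shortest, 1318 bases) and 0.10 to 0.29 with the other 5. The part of transcript length in the levels was not tested.

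**Figure D5:**
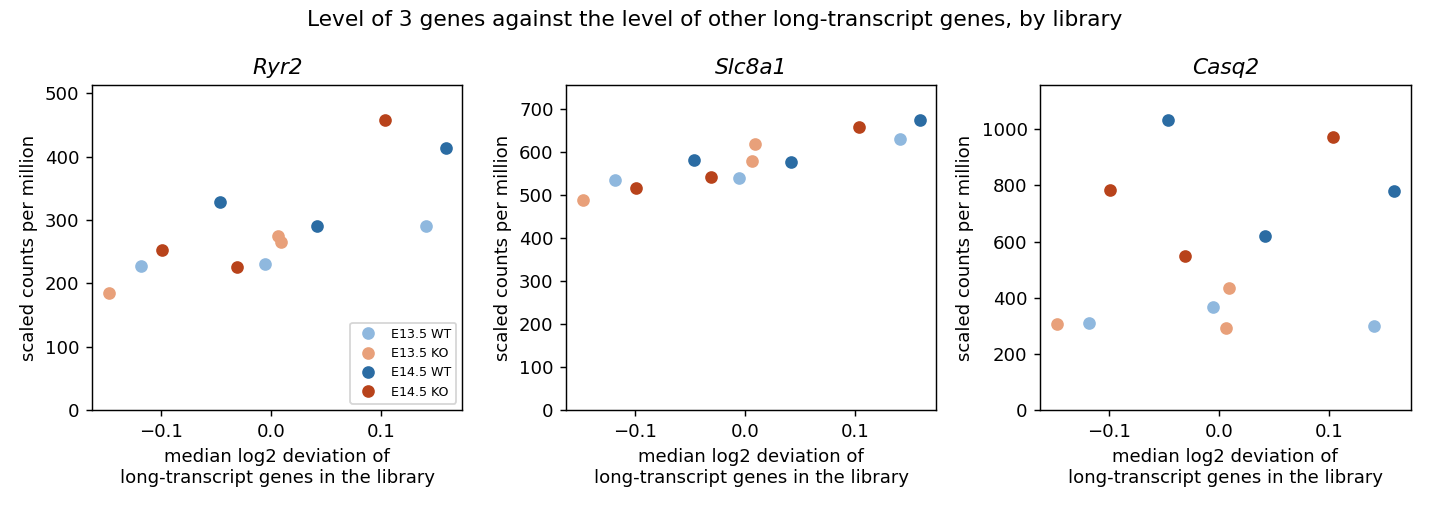
CPM of Ryr2, Slc8a1 and Casq2 (vertical axes, from 0) against the median log2 deviation of 338 long-transcript genes in the same library (horizontal axis); points are the 12 libraries, coloured by group. Slc8a1 follows the horizontal axis most closely (r = 0.91), and Casq2 separates by stage instead.

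Likeness over the 12 libraries was measured by Pearson r of log2 CPM against 15720 other genes whose mean reached 1 CPM; it is a description. The closest to Casq2 were Naalad2 (0.99), Dpt (0.98) and Fabp3-ps1 (0.97), to Pln Ppp1r14c, Sesn1 and Pde1c (0.98, 0.98 and 0.97), and to Trdn Fabp7 (0.98), 1700120C14Rik (0.97) and Lppr1 (0.97). Ryr2 was most like Vps13d (0.97), Atp2a2 like Usp13 (0.97), Slc8a1 like Akap13 (0.96), Hrc like Zc3h13 (0.97), Jph2 like Hist1h4d (0.95), Cacna1c like Acacb (0.94) and Sln like Zfp93 (0.87). Over deviations from the group means the closest to Sln was Nr2f1 (0.96), a gene of the atrial marker list, while the other 8 markers of that list had r from -0.51 to 0.66 with it.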

How the data were processed

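RNA-seq of whole embryonic mouse hearts gave 12 libraries (NEBNext Ultra kit, per the labels' protocols). The authors deposited a table of raw read counts per gene, 45664 rows named by symbol. The submitters' processing notes list STAR 2.5.3a, featureCounts, DESeq2, DESeq and GRCm38, with no role or order. The annotation and the strand setting of the counting are not given in the sources used here. Totals were 46556032 to 182545647 counts per library; no 2 libraries agreed within sampling noise.

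Counts were fitted with edgeR 4.0.16 in R 4.3.3: filterByExpr on the 4 groups (20691 genes kept), TMM scaling, 1 mean per group over all 12 libraries, glmQLFit and glmQLFTest, two-sided, Benjamini-Hochberg over all tested genes, threshold 0.05. The common biological coefficient of variation was 17.1%, with 8 residual degrees of freedom. Differences are log2 with SE. The script was tested on simulated counts. Ratios used exact permutation tests (scipy 1.17.1). Alternatives were DESeq2 1.42.0, RLE and upper-quartile scaling, no filter, the compared libraries alone, a litter block, a covariate for Y-linked expression, leaving out each library, litter 3 or a pair of KO libraries, and, chosen after seeing the data, robust empirical Bayes. Litter pairs the E14.5 libraries by the labels; the mean correlation of deviations between WT and KO was 0.00399 within a litter and -0.00501 between litters. Gene positions and lengths came from GENCODE M21 and upstream sequences from RefSeq.

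The members and lists were chosen with earlier results of these data known. Named were all 10 members; of the other calcium genes, up to 3 each way past the threshold by smallest p or, where none passed, the smallest p each way (Atp2a3, outside this rule, was added after its value was seen); and for each member the genes with the highest r. Further marker lists in the fit gave, for KO minus WT over both stages, counts past the threshold of 1 up of 9 atrial, 1 up of 9 ventricular, 0 of 5 tested skeletal muscle, 1 up of 10 smooth muscle and pericyte, 1 up and 1 down of 10 endothelial, 0 of 10 epicardial and fibroblast, 0 of 10 macrophage, 0 of 9 erythroid and 1 down of 8 tested liver markers.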

Additional observations from a re-analysis of the deposited data

How the results depend on the processing

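Of 1300 recomputed log2 differences of the 10 genes (6 comparisons, each alternative), 1265 kept their side of the threshold, 26 lost a call and 9 gained one. The main fit called 3 genes for stage in WT, 2 for stage in KO and 0 in the other comparisons. Most of the 1300 therefore had no call to lose, and the 1265 do not measure how stable the calls were. Of called values 0 changed sign, and 84 uncalled values did. The number of the 10 genes called was 0 at E13.5 and in the interaction under every alternative run. At E14.5 DESeq2 called 1 (main 0). Averaged over stages it was 1 with DESeq2 and with litter 3 left out, and 0 to 1 over fits leaving out 1 library. For stage in WT it was 0 with litter 3 left out and 0 to 3 leaving out 1 library (main 3); for stage in KO, 1 with only the libraries compared, 0 without KO 5 of E13.5 and KO 2 of E14.5, and 0 to 3 leaving out 1 library (main 2). The cause was not tested; fits that leave out libraries hold fewer.

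With litter as a replicate block, the paired fit kept Casq2 (adjusted p = 0.0219) and Trdn (0.044) for stage in WT and lost Pln (0.0541); it changed no other call of the 10 genes. DESeq2 called more of the 56 other calcium genes than edgeR: 7 against 2 for genotype over both stages, 8 against 4 for stage in WT and 10 against 3 for stage in KO, where over all genes it called 926 against 322, 2140 against 766 and 1822 against 779. The other calls of the stage comparison in WT were lost without WT 7.2 of E14.5, with adjusted p of 0.0958 for Cacna1g, 0.0699 for Ppp1r3a, 0.139 for S100a1 and 0.165 for Atp2a3, and in KO without KO 7 of E13.5, with 0.0936 for Cacna1g, 0.088 for Ppp1r3a and 0.0987 for Casq1. Over all tested genes 15 were called for stage in WT without WT 7.2 (main 766) and 49 for stage in KO without KO 7 (main 779). Libraries of 46556032 counts or more make counting error small for 9 of the 10 genes. Sln had a mean of 5.01 CPM, with 135 to 923 counts per library. Its coefficient of variation between the libraries of a group was 25.8% to 82.8%.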
